A study of Mus musculus with 8 samples.

Results

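The comparison described here sets untreated beta cells of *Med14* S983A mice against untreated beta cells of wild type (WT) mice. It rests on 2 of the 54 columns of the deposited single nucleus RNA-seq table, the beta cell pool of mutant control islets (mutant CON) and that of WT control islets (WT CON), and covers 10093 of 17362 genes that passed a filter on low values. Of these, 149 were at least 1.5-fold higher in the mutant and 390 at least 1.5-fold lower, together 5.34% of the genes compared. Of the called genes, 66 higher and 181 lower ones did not pass the same threshold when WT islets treated with Exendin-4 were set against untreated WT islets.

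Islets of both genotypes were cultured, without additions (CON), with forskolin (FSK), an activator of adenylyl cyclases, or with Exendin-4 (Ex-4, 10 nM for 16 h), which acts on the GLP-1 receptor. The mutant mice carry the S983A change in the whole body, so every islet cell type and every other tissue carried it before the islets were taken. About 100 islets went into each sample, and the 6 conditions were barcoded in separate wells and then sequenced together in 8 sublibraries. The mutant mice were on C57BL/6J, and islets were exposed to FSK for 16 h. The number of mice behind a sample, their age and sex and the dose of FSK are not stated in the sources used here.

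There is 1 pool of nuclei for each condition and cell type and no replicate, so no test was run. A difference between genotypes cannot be told apart from a difference between islet preparations or barcode wells. Levels are counts per 10000 counts of the pool (CP10K), followed where given by the 95% exact Poisson interval of the count, which covers counting error only. Differences are of log2(CP10K + 1), a scale that understates the change of weakly expressed genes, and a gene was called at a 1.5-fold difference, which is 0.58 on this scale to 2 decimals. The beta cell pools held between 1915006 and 3094377 counts, 3012428 of them in WT CON and 1925445 in mutant CON. A change in every nucleus and a change in some of them cannot be told apart in such a pool.

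Within Mediator, Med14 is the subunit that joins the modules together, and the complex as a whole carries signals from transcription factors to RNA polymerase II. In beta cells, incretin hormones raise cAMP, which activates protein kinase A (PKA), and PKA in turn phosphorylates transcription factors such as CREB. The kinase prefers serines that follow basic residues such as arginine. Alanine in place of serine cannot be phosphorylated at that position.

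The reference sequence around the mutated codon is shown because it is the site the study changed. The gene occupies 12541605 to 12628584 on the X chromosome, minus strand (GRCm39, GENCODE M39), and the serine codon TCT that the mutation changes, in a protein of 1459 residues, lies in exon 22 of 31, at 12562479 to 12562481. The line below gives the coding strand of chrX:12562449-12562511, with the serine codon in capitals directly after 3 arginine codons.
*Med14* S983A codon with 10 codons on each side: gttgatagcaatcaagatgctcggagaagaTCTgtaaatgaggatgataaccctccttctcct

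*Med14* RNA itself was at 0.478 CP10K (0.403 to 0.563) in WT CON and at 0.384 CP10K (0.302 to 0.482) in mutant CON, with overlapping intervals. A point mutation need not alter RNA level, and the genotype labels were not checked by these values. Of the 9 kept genes within 1 Mb of *Med14*, itself included, none was called, where 5.34% of all genes were. Their differences ran from -0.27 to 0.09, the lowest in *Usp9x*. The Y-linked genes *Ddx3y*, *Uty*, *Kdm5d* and *Eif2s3y* were present in all 6 beta cell pools and *Xist* was listed at 0 in all of them.

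The identity and state of the pools were examined next. The summed level of 12 beta cell markers was 76.6 CP10K in WT CON against 55.9 in mutant CON, 7 of the 12 being lower and 5 higher, against a range of 54.9 to 63.2 in the other 4 pools. In the same order, 9 alpha cell markers summed to 7.44 and 4.89 CP10K, 7 delta cell markers to 0.0764 and 0.208, and 7 ductal markers to 1.71 and 2.17. Acinar, macrophage and mesenchymal markers summed to at most 0.0727 CP10K in any beta cell pool, with *Col1a1*, *Col1a2* and *Rgs5* listed at 0 in all 6. Transcripts linked to ribosomal RNA summed to 344 CP10K in WT CON against 1189 in mutant CON. They were at 917 in WT Ex-4 and 1479 in mutant Ex-4 but at 281 and 275 in the FSK pools of WT and mutant. Mitochondrial transcripts were at 1.59 CP10K in WT CON against 2.70 in mutant CON. WT CON therefore stood apart from mutant CON, WT Ex-4 and mutant Ex-4 in its ribosomal RNA linked signal, and the part of this in the differences below was not tested, except where values without these genes are given.

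The genes called higher made up 1.48% of the genes compared and those called lower 3.86%. Higher genes were 27.6% of all calls. That share was 44.4% (234 higher, 293 lower) once each pool was scaled to its counts outside the ribosomal RNA linked and mitochondrial lists (rescaling), and 60.0% (204 higher, 136 lower) once a trend on gene length was removed. The counting intervals of the pools were apart for all 539 called genes, as they were for 41.7% of all genes compared. Nearest to the threshold, *Fbrs* (0.59) and *Ubtf* (0.59) were just inside and *Hook2* (0.58) just outside among higher genes, and *Slc9a7* (-0.59) and *Eri3* (-0.59) just inside and *Creb3l2* (-0.58) and *Kcnh1* (-0.58) just outside among lower genes.

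**Figure D1:**
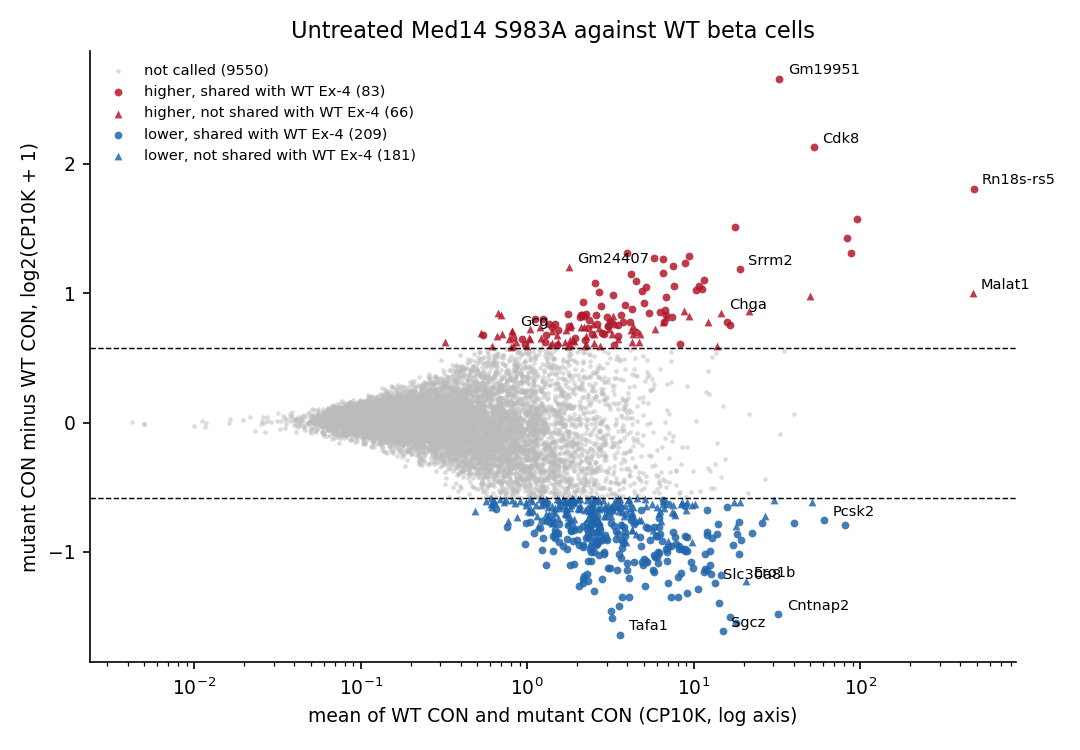
Difference of mutant CON minus WT CON on the log2(CP10K + 1) scale (vertical axis) against the mean level of the 2 pools in CP10K (log axis) for each kept gene in beta cells; genes at 0 in both pools are not drawn. Red symbols are the 149 higher and blue symbols the 390 lower genes, triangles are called genes not shared with WT Ex-4 (66 and 181), and dashed lines mark the threshold. *Gm19951* is the highest point (2.66) and *Tafa1* the lowest (-1.64).

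Genes for RNA processing formed the largest block of higher genes among the lists. Of 71 kept splicing factors and spliceosome proteins, 18 were higher and 0 lower, and the list had a median difference of 0.30 against 0.00 over all genes. With the length trend removed 17 were higher, and with rescaling 24, with 0 lower under each. *Srrm2*, which encodes a large scaffold of nuclear speckles, was at 11.2 CP10K (10.9 to 11.6) in WT CON and at 26.8 (26.1 to 27.6) in mutant CON, a difference of 1.18. Its levels were 23.7 in WT Ex-4, 28.7 in mutant Ex-4, 7.72 in WT FSK and 8.49 in mutant FSK. WT CON and both FSK pools were thus low for *Srrm2* and the other 3 pools high, as the plot of levels in the 6 pools shows for several of these genes. *Son*, another speckle protein, was at 6.62 CP10K in WT CON against 14.9 in mutant CON (1.06). *Rbm25*, which binds pre-mRNA near splice sites, was at 5.05 (4.8 to 5.31) and 13.8 (13.2 to 14.3), a difference of 1.29.

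*Prpf38b* (1.31), *Luc7l3* (1.27), which binds U1 snRNP, and *Prpf4b* (1.21), a kinase of the spliceosome, moved by similar amounts. Among the 18 were also, chosen after their values were seen, *Srsf11* (1.05), *Snrnp70* (1.02), a U1 snRNP protein, and *Sf3b1* (0.71), which helps select the branch point. Of the 18 splicing genes, 15 were shared with WT Ex-4 and 3 were not, *Srsf5*, *Luc7l* and *Sf3b1*. Their WT Ex-4 differences were 0.58, 0.54 and 0.51, each just short of the threshold. Of 16 kept genes of the exon junction complex and mRNA surveillance, 3 were higher and 0 lower (median 0.19). These were *Acin1* (3.64 CP10K in WT CON, at 9.36 in mutant CON, 1.16), *Upf3b* (2.97 and 5.65, 0.74) and *Upf2* (1.20 and 2.32, 0.59), the last pair being factors of nonsense-mediated decay.

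Chromatin genes were also found among the higher genes. Of 20 kept histone H3 methyltransferases, 4 were higher and 0 lower, with a median of 0.36. *Kmt2d*, which methylates H3 lysine 4 at enhancers, was at 2.38 CP10K (2.21 to 2.56) in WT CON and 5.33 (5.01 to 5.66) in mutant CON (0.91). *Kmt2a* was at 5.07 and 9.70 (0.82), *Kmt2b* at 0.800 and 2.00 (0.74) and *Ehmt2*, a methyltransferase for H3 lysine 9, at 0.541 and 1.54 (0.72). The counting intervals of the pools were apart for each of these 4. *Dot1l* (0.46), *Setd1a* (0.45) and *Kmt2e* (0.41) did not reach the threshold, and the lowest member was *Nsd3* (-0.06). Under FSK the 4 called genes differed between the genotypes by -0.07 to 0.06.

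Further families were grouped after their values were seen and are given as descriptions only, beside 1.48% higher and 3.86% lower over all genes. Of 9 kept chromodomain helicases, *Chd3* (0.83) and *Chd4* (0.75) were higher and 0 lower. Of 50 translation initiation factors, *Eif3a* (1.15), *Eif5b* (1.08) and *Eif4g1* (0.70) were higher and 0 lower. Of 7 golgins, which tether vesicles at the Golgi, *Golga4* (1.03) and *Golgb1* (1.02) were higher. Of 32 DEAD-box helicases, 5 were higher and 1, *Ddx31*, lower. Of 11 A-kinase anchoring proteins, which tether PKA, *Akap9*, *Akap8l* and *Akap8* were higher and 0 lower. The other added families leaned lower. Receptor tyrosine phosphatases (5 of 14), protein kinases C, D and G (4 of 11) and TALE homeobox factors (4 of 9) had lower genes and 0 higher. So did teneurins (3 of 4), forkhead factors (2 of 14) and tetraspanins (2 of 10). Of 148 solute carriers 13 were lower and 1 higher. Without the length trend fewer were lower in each of these except tetraspanins.

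**Figure D2:**
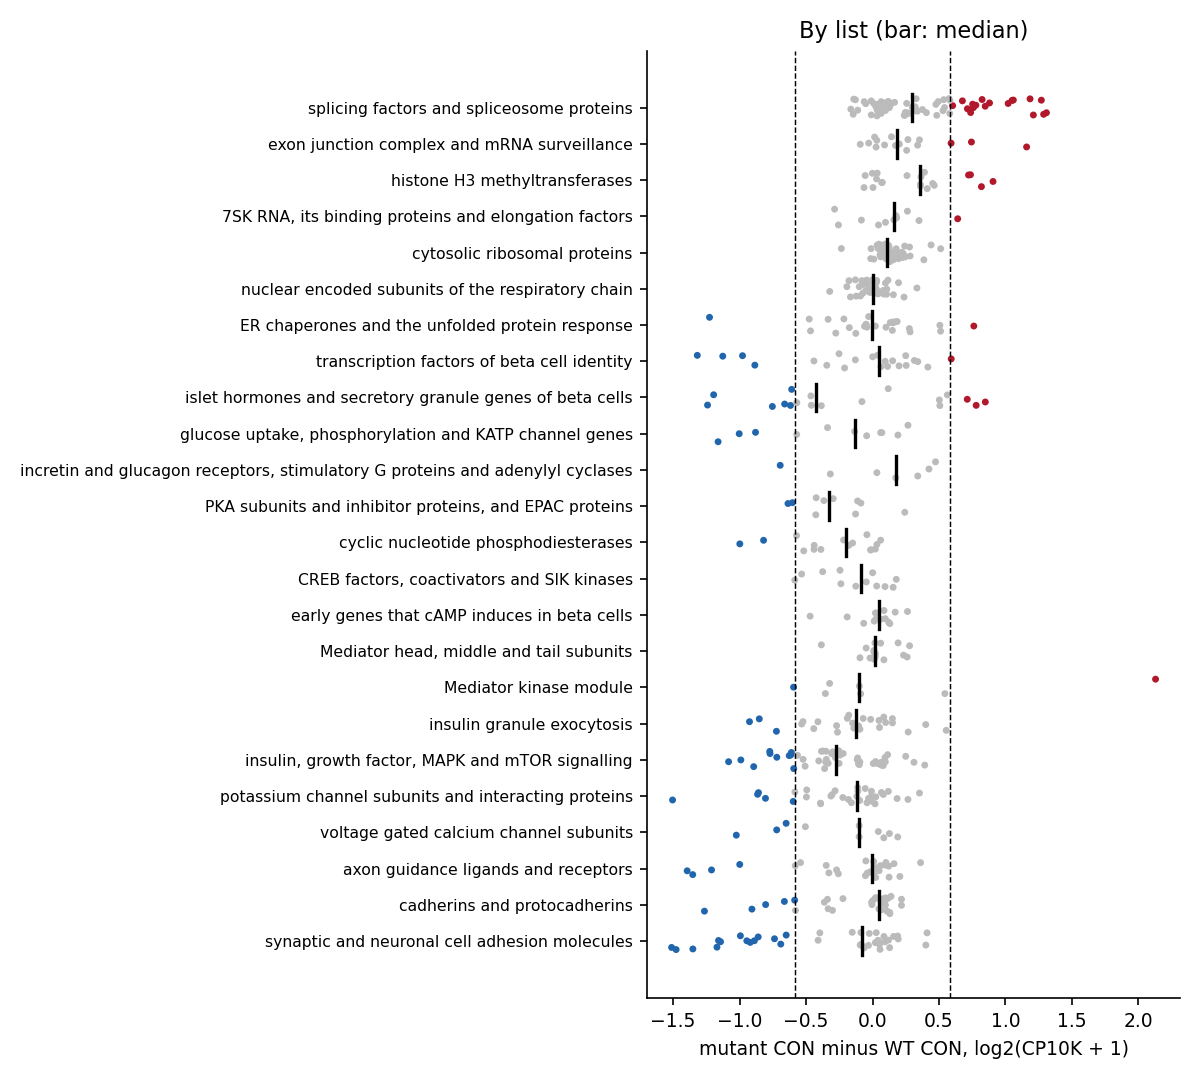
Difference of mutant CON minus WT CON, log2(CP10K + 1), for each kept member of 24 gene lists in beta cells; each point is a gene, black bars are list medians, and dashed lines mark the threshold. Red points (higher) include 18 of 71 splicing and 4 of 20 H3 methyltransferase genes. Blue points (lower) are found in the adhesion, channel, growth signalling and granule lists, among others. The granule list holds both (3 higher, 6 lower). *Cdk8*, in the Mediator kinase module, is the highest point (2.13).

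The largest single differences were in the list of genes linked to ribosomal RNA. Of its 8 kept members 7 were higher and 0 lower, with a median of 1.54. The remaining member, *AY036118*, went the other way, short of the threshold (0.803 CP10K in WT CON, 0.353 in mutant CON, -0.41). *Gm19951*, a long noncoding RNA gene on chromosome 12 (99609334 to 99613482, GRCm39), was at 8.21 CP10K in WT CON, at 57.2 in mutant CON, 22.3 in WT Ex-4, 89.7 in mutant Ex-4, 7.59 in WT FSK and 8.32 in mutant FSK. *Cdk8*, the kinase of the Mediator kinase module, was at 19.1, 86.9, 44.2, 75.7, 38 and 30.0 CP10K in the same order. *Cdk8* thus exceeded WT in the mutant without treatment (2.13) and after Ex-4 (0.76) but was lower in the mutant after FSK (-0.33). *Rn18s-rs5*, an annotated copy of 18S ribosomal RNA, was at 212 CP10K in WT CON against 747 in mutant CON (1.81), and reads from other copies cannot be separated from it. In a search of 6 other loci of this list against that copy, *Cdk8* and *Gm19951* among them, 0 held a matching stretch (E-value limit 1e-05). Other ribosomal RNA sequences were not searched, so the source of the reads at these loci was not tested. *Lars2* (1.43), a mitochondrial leucyl-tRNA synthetase, *Camk1d* (1.51) and *Cmss1* (1.57) were of the same group, and *Gphn* (49.9 and 125 CP10K, 1.31), which encodes gephyrin and is not a member, had the same order of pools as *Lars2*.

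The other components of Mediator had smaller differences on this scale, which understates changes of weakly expressed genes. Of 17 kept head, middle and tail subunits, 0 were called, where 5.34% of all genes were. A list this short would hold few calls or 0 in any case. Their differences ran from *Med27* (-0.39) to *Med25* (0.28), with a median of 0.02. In the kinase module, *Med12l* was lower (2.69 and 1.44 CP10K, -0.59) while *Med12* was at 0.644 and 1.4 CP10K (0.54) and *Cdk19*, the paralog of *Cdk8*, at 0.730 and 0.353 (-0.35), both short of the threshold. After rescaling, *Med12l* no longer passed it (-0.52). Of 11 kept genes of the 7SK complex and elongation factors 1 was higher, *Rn7sk* itself, the RNA that holds the elongation kinase inactive (1.52 CP10K in WT CON, at 2.93 in mutant CON, 0.64). *Rn7sk* was at 3.43 in WT Ex-4, 5.15 in mutant Ex-4, 7.30 in WT FSK and 1.12 in mutant FSK, so that the order of the genotypes turned round under FSK (-1.97). Near-identical copies of this RNA exist, so its assignment is uncertain, and it was not called after removal of the length trend.

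To determine which functions of beta cells differed at baseline, hormone and granule genes were examined. Of 18 kept members, 3 were higher and 6 lower, with a median of -0.42. *Chga*, which encodes chromogranin A, a granin of the secretory granule, was at 10.1 CP10K (9.77 to 10.5) in WT CON and 19 (18.4 to 19.7) in mutant CON (0.85). *Chgb* was at 1.06 and 2.37 CP10K (0.71). *Ins1* was at 4.54 (4.31 to 4.79) and 8.52 (8.11 to 8.94), a difference of 0.78, and *Ins2* at 10.4 and 15.2 (0.51), short of the threshold. These insulin genes are near-identical in sequence, so their reads may be split between them. *Scg2*, another granin, was at 1.48 and 2.66 CP10K (0.56) and *Ptprn* at 3.51 and 5.39 (0.50).

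Genes for processing and loading of the granule were lower. *Slc30a8*, the zinc transporter of the insulin granule, was at 19.3 CP10K (18.8 to 19.8) in WT CON and 7.57 (7.18 to 7.97) in mutant CON (-1.24). Its other levels were 8.98 in WT Ex-4, 7.72 in mutant Ex-4, 10.9 in WT FSK and 8.44 in mutant FSK, so WT CON was the highest of the 6 pools. *Iapp*, which encodes amylin, was at 11.6 and 4.51 CP10K (-1.20). The convertases that cut proinsulin were both lower, *Pcsk2* at 76.4 and 44.9 CP10K (-0.75) and *Pcsk1* at 3.32 and 1.73 (-0.66). *Cpe*, the carboxypeptidase that trims the cut hormone, was at 8.16 and 5.01 (-0.61) and *Ptprn2*, a granule membrane protein, at 62.5 and 40.4 (-0.62). *Ins1*, *Ins2*, *Chga*, *Chgb* and *Scg2* thus lay above 0, and the convertases lay below it together with *Scg3* (-0.39) and *Scg5* (-0.46). After rescaling, 6 granule genes were higher and 3 lower, *Pcsk1* (-0.58), *Cpe* (-0.50) and *Ptprn2* (-0.49) falling short. After removal of the length trend 4 were higher and 3 lower, and *Pcsk2* (-0.44) also fell short while *Iapp* (-1.32) and *Slc30a8* (-1.22) did not.

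**Figure D3:**
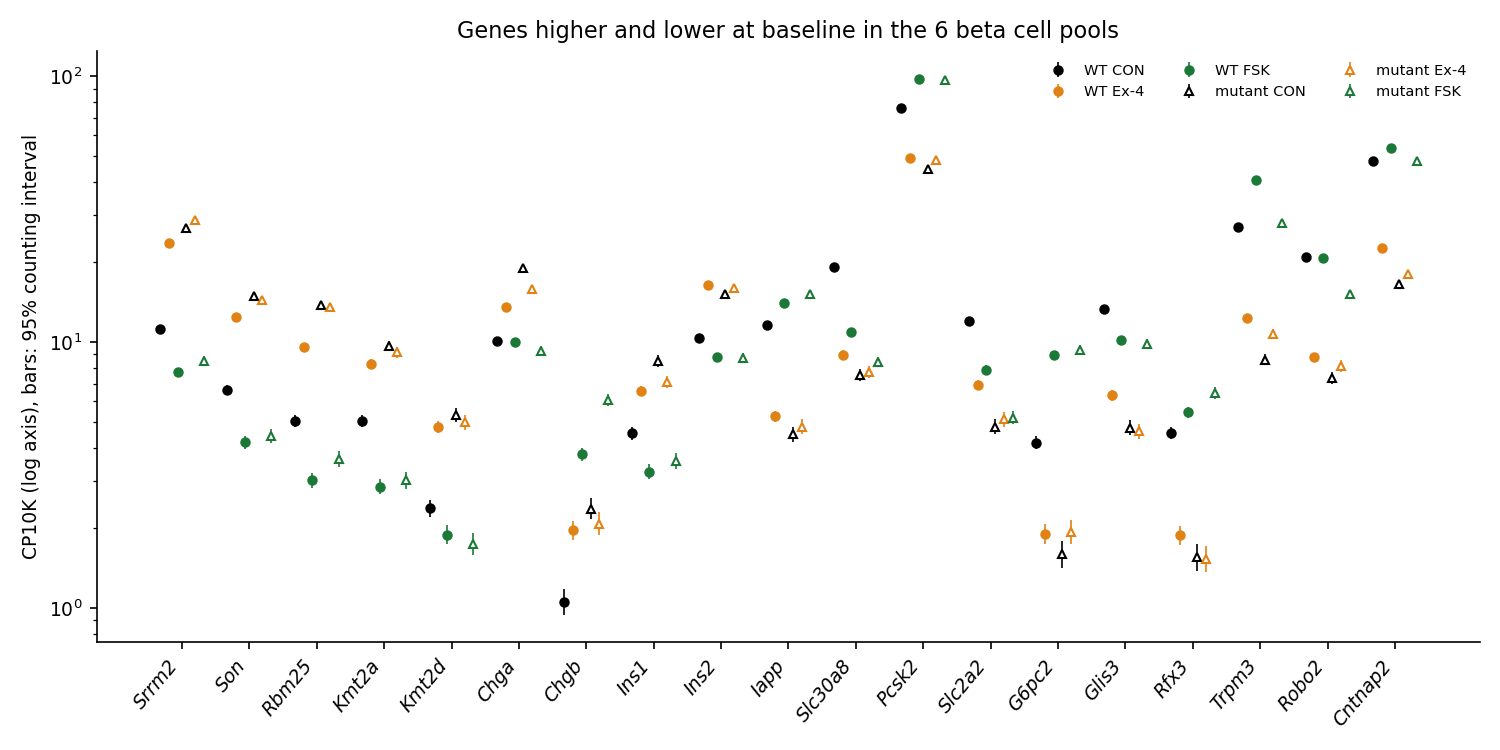
Level in CP10K (log axis) of 19 genes in the 6 beta cell pools. Filled circles are WT and open triangles mutant, black is CON, orange Ex-4 and green FSK, and bars are 95% exact Poisson intervals of the counts. *Srrm2* lies between 23.7 and 28.7 CP10K in mutant CON and both Ex-4 pools and *Slc30a8* is highest in WT CON (19.3).

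Glucose sensing genes were changed in part. Of 11 kept members 3 were lower and 0 higher, as was also the case with rescaling and with the length trend removed. *Slc2a2*, the glucose transporter GLUT2, was at 12 CP10K (11.6 to 12.4) in WT CON and 4.82 (4.51 to 5.14) in mutant CON (-1.16). *G6pc2*, a glucose-6-phosphatase of islets, was at 4.20 and 1.59 CP10K (-1.0), and *Gpd2*, the mitochondrial glycerol phosphate dehydrogenase, at 5.3 and 2.43 (-0.88). *Slc2a2* was also below WT in the mutant after Ex-4 (6.91 in WT, 5.13 in the mutant, -0.37) and after FSK (7.90 and 5.21, -0.52), whereas *G6pc2* differed between genotypes by 0.02 after Ex-4 and 0.05 after FSK. The KATP channel subunit gene *Abcc8* was at 20.9 and 22.0 CP10K (0.07), which did not reach the threshold.

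Of 22 kept transcription factors of beta cell identity, 1 was higher and 4 were lower, with a median of 0.05. *Glis3*, a regulator of insulin transcription, was at 13.4 CP10K (13 to 13.8) in WT CON and 4.77 (4.47 to 5.09) in mutant CON (-1.32). *Rfx3* was at 4.57 and 1.55 CP10K (-1.13), *Esrrg*, a nuclear receptor of mature beta cells, at 9.34 and 4.25 (-0.98) and *Foxo1* at 3.57 and 1.47 (-0.89). *Mlxipl*, the glucose-responsive factor ChREBP, was at 10.7 and 16.7 CP10K (0.59), the higher gene of the list. *Pdx1* (1.64 and 1.86 CP10K, 0.11), *Nkx6-1* (1.69 and 2.41, 0.34), *Mafa* (0.505 and 1.01, 0.42) and *Pax6* (0.31) did not reach the threshold. *Glis3* (421417 bases), *Esrrg* (606095) and *Rfx3* (249446) are long genes. After removal of the length trend *Esrrg* (-0.50) was no longer called, while *Glis3* (-0.91), *Rfx3* (-0.82) and *Foxo1* (-0.77) were.

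Components of the cAMP pathway were followed from receptor to target. Of 7 kept receptors, G proteins and cyclases, 1 was lower, the cyclase gene *Adcy9* (5.53 and 3.03 CP10K, -0.69), which was not called after removal of the length trend. *Glp1r* was at 9.39 CP10K (9.05 to 9.74) in WT CON and 7.34 (6.96 to 7.73) in mutant CON (-0.32), *Gipr* at 3.06 and 4.14 (0.34) and *Gnas*, the stimulatory G protein, at 2.09 and 3.15 (0.42). Among 10 kept PKA and EPAC genes 2 were lower, *Rapgef4*, which encodes EPAC2 (9.41 and 5.70, -0.64), and *Prkacb*, a catalytic subunit of PKA (1.72 and 0.789, -0.60), and neither passed with rescaling or with the length trend removed. The other catalytic subunit, *Prkaca*, was at 0.422 and 0.338 CP10K (-0.09). Of 16 phosphodiesterases *Pde3b* (3.67 and 1.34, -1.0) and *Pde7b* (3.20 and 1.38, -0.82) were lower, of which only *Pde3b* (-0.82, against -0.47 for *Pde7b*) was still called with the length trend removed, and among 6 receptor kinases and arrestins *Grk5* was lower (7.35 and 2.98, -1.07).

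Further down the pathway no gene was called. With 5.34% of all genes called, lists this short would hold few calls or 0 in any case. Of 12 CREB factors, coactivators and SIK kinases 0 were called, the closest being *Creb3l2* (-0.58) and *Sik3* (-0.53), and *Creb1* was at 1.01 and 0.706 CP10K (-0.24). Of 14 kept early genes that cAMP induces 0 were called, with a median of 0.05. *Irs2* was at 0.621 and 0.732 CP10K (0.10) and *Per1* at 0.292 and 0.551 (0.26). *Fos*, at 0.0232 and 0.0675 CP10K, was too low for a 1.5-fold change to register on this scale. The added 1 also damped changes of other weakly expressed genes, such as *Irs2* and *Per1*. A list with 0 calls, here or below, was therefore not shown to be unchanged. The 59 kept ribosomal protein genes (median 0.11) and 42 kept respiratory chain genes (0.01) held 0 calls as well, and so did 19 glycolysis genes, 18 cholesterol genes, and 13 collagens and laminins. Of 26 ER folding genes *Hspa5*, the ER chaperone BiP, was higher (0.833 and 2.11 CP10K, 0.76) and *Ero1b*, the oxidase that serves disulfide formation in proinsulin, was lower (29.1 and 11.9, -1.23).

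Promoter sequences were compared because CREB binds the cAMP response element (CRE, TGACGTCA, which reads the same on both strands). In 300 base windows from 250 bases before to 50 bases after the annotated start, 3.50% of 143 higher, 2.07% of 387 lower and 3.38% of 9834 kept genes with a window held the full CRE, against 1.25% of all 77685 annotated genes. The short form of the element (TGACG or CGTCA, which are the same site on opposite strands and are both contained in the full CRE) was present in 40.6% of higher, 22.2% of lower and 30.9% of kept genes, against 15.9% of all. These are counts of letters and not of bound sites. Among the 30 genes named for size and the named called members of the granule, splicing, mRNA surveillance, ER and H3 methyltransferase lists, *Cmss1* (higher) and *Pcsk1* (lower) held the full element. Their windows are shown on the strand of the gene with the CRE in capitals (GRCm39).
*Cmss1*, chr16:57427204-57427503, minus strand: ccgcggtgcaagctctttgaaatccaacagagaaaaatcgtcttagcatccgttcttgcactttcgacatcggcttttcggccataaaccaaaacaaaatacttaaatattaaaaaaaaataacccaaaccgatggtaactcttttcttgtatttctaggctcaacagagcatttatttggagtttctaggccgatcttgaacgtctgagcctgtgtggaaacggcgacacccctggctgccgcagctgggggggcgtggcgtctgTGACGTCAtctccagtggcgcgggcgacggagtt
*Pcsk1*, chr13:75237695-75237994, plus strand: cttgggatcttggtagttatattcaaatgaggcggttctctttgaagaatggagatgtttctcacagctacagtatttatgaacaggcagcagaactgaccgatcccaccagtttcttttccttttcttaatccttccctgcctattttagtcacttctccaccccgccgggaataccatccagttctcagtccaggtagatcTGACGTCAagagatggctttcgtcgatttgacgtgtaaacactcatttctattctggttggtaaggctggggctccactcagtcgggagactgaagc

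Lower genes were mostly long, and adhesion, guidance and channel genes were found among them. Of 40 kept synaptic and neuronal adhesion genes, 14 were lower and 0 higher. *Cntnap2*, a cell adhesion gene that spans 2244857 bases of chromosome 6 (45036291 to 47281147, GRCm39), was at 48.0 CP10K (47.2 to 48.8) in WT CON and 16.6 (16.0 to 17.2) in mutant CON (-1.48). It was at 22.6 in WT Ex-4, 18.1 in mutant Ex-4, 53.8 in WT FSK and 48.2 in mutant FSK, low in the same 3 pools in which *Srrm2* was high. *Adgrl3*, a latrophilin, was at 5.27 and 1.20 CP10K (-1.51). The teneurins *Tenm4* (-1.35), *Tenm2* (-1.16) and *Tenm3* (-1.14) were lower as well. The median of the 40 genes was -0.08, and it became 0.15 with 6 higher and 5 lower once the length trend was removed.

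Of 28 axon guidance genes 4 were lower and 0 higher (median 0.00, and 0.16 without the length trend). *Robo2*, a receptor for Slit ligands, was at 20.9 CP10K in WT CON against 7.35 in mutant CON (-1.39), and *Robo1* at 6.31 and 1.86 (-1.35). *Efna5* (-1.21) and the netrin receptor gene *Unc5c* (-1.0) completed the 4. Cadherins and protocadherins had 5 lower of 33, led by *Cdh8* (-1.26), and 0 higher. After rescaling 3 of them were lower, and with the length trend removed 3 of the 33 were higher and 2 lower, *Cdh8* (-0.87) and *Cdh2* (-0.61). Of 34 potassium channel genes 5 were lower, led by *Kcnip4* (24.8 and 8.09 CP10K, -1.50), and of 10 calcium channel genes 3, *Cacna2d1* (8.09 and 3.47, -1.02), *Cacna1c* (33.7 and 20.1, -0.72), the L-type channel of beta cells, and *Cacnb2* (-0.65). With the length trend removed, *Kcnip4* (-0.90) and *Cacna2d1* (-0.61) were the lower genes still called in these channel lists. *Trpm3*, a cation channel gene, was at 27.2 and 8.61 CP10K (-1.55). In the exocytosis list 3 of 26 were lower, *Snap25* (5.43 and 2.38, -0.93), a SNARE protein, *Cadps* (29.1 and 15.7, -0.85), which primes granules, and *Syt14* (-0.72). With the length trend removed 1 was higher and 1 lower, *Snap25* (-0.80).

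Growth factor signalling had 10 lower of 48 and 0 higher, with a median of -0.27. The prolactin receptor gene *Prlr* was at 12.5 CP10K (12.1 to 12.9) in WT CON and 5.80 (5.47 to 6.15) in mutant CON (-0.99), and the growth hormone receptor gene *Ghr* at 17.1 and 8.76 (-0.89). *Egfr* (-0.77), *Fgfr2* (-0.77) and *Ntrk2* (-0.72) were lower too, and *Mapk10* (-1.08) was the lowest of the list. With the length trend removed, 2 of the 10 remained, *Mapk10* (-0.74) and *Prlr* (-0.76), and *Fgfr2* crossed to 0.02. Among nuclear noncoding RNAs, *Malat1* was at 315 CP10K in WT CON against 633 in mutant CON (1.00), whereas *Lncpint* (10.2 and 5.11, -0.88) and *Rian* (8.16 and 4.91, -0.63) were lower.

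Some genes with the largest decreases were in none of the 48 gene lists. Among them *Tafa1*, which encodes a secreted chemokine-like protein, was at 6.0 CP10K in WT CON against 1.25 in mutant CON (-1.64). *Sgcz*, a sarcoglycan, was at 23.0 and 6.87 (-1.61), *Pbx3*, a homeobox factor, at 5.17 and 1.25 (-1.45), *Immp2l*, a mitochondrial peptidase, at 5.65 and 1.49 (-1.42), *Bace2*, a protease of beta cells, at 11.9 and 4.07 (-1.35), *Smyd3* at 10.9 and 3.68 (-1.35) and *Npas3* at 3.99 and 1.02 (-1.30). *Bace2* spans 86417 bases and kept a difference of -1.23 without the length trend. Of the 30 genes named for the size of their difference, 29 had a single match in the annotation and 26 of these overlap another annotated gene, and the sources used here do not say if reads were counted by strand.

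Gene length was examined across the whole comparison. The median length was 262 kb for lower genes, 27.6 kb for higher genes and 35.8 kb for all kept genes with a length. Of 387 lower genes with a length 324 (83.7%) exceeded 100 kb, against 15 (10.5%) of 143 higher and 19.7% of all. Higher genes were dense in exons, with a median of 5.62 exons per 10 kb against 0.447 in lower genes and 2.84 overall. Kept genes were divided by length into 10 classes of equal size. In the longest class (168 kb and above) the median difference was -0.33 and 256 genes were lower and 8 higher. In the shortest class the median was 0.11, with 3 lower and 19 higher. In the longest class the genotypes differed by a median of -0.07 after Ex-4 and of -0.04 after FSK. Of the 390 lower genes, 133 were still called lower without the length trend and 3 crossed to above 0, and of the 149 higher genes 131 were still called.

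**Figure D4:**
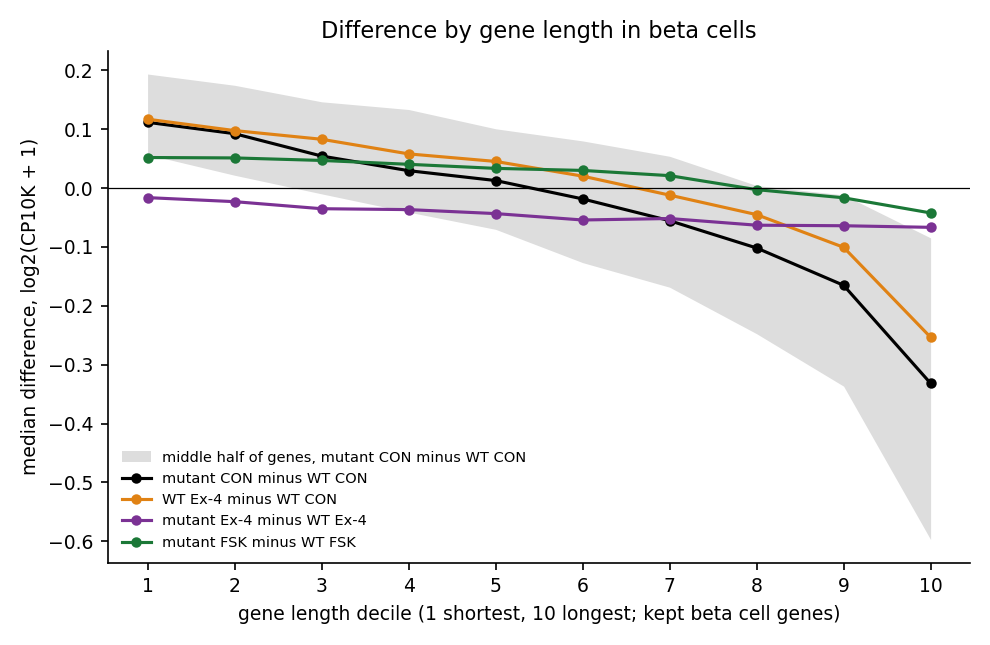
Median difference on the log2(CP10K + 1) scale in 10 classes of gene length for 4 comparisons between beta cell pools; the grey band runs from the lower to the upper quartile of genes for mutant CON minus WT CON. The black line falls from 0.11 in the shortest to -0.33 in the longest class, and the lines for mutant against WT after Ex-4 and after FSK stay between -0.07 and 0.05.

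The genotypes were next compared under treatment, in pools that the baseline comparison does not use. After Ex-4, 6 genes were higher in the mutant and 0 lower, 0.0594% of genes compared, and after FSK 3 were higher and 11 lower (0.0297% and 0.109%). The 149 genes higher at baseline had a median difference of 0.76 at baseline, 0.09 after Ex-4 and 0.08 after FSK, against -0.04 and 0.03 over all genes in the treated pools. The 390 lower genes had medians of -0.78, -0.18 and -0.10. Of the 149 higher genes 4 were higher after Ex-4 (*Gm19951*, *Cdk8*, *Rn18s-rs5* and *Gcg*) and 3 higher and 1 lower after FSK (*Gcg*, *Cmss1* and *Gm24407*, and *Rn7sk*). Of the 390 lower genes 0 were called after Ex-4, where 0 genes were lower in all, and 5 were lower after FSK, *Adgrl3* (-0.73), *Slc35f1* (-0.62), *Slc7a2* (-0.60), *Gm281* (-0.59) and *Thsd4* (-0.59). *Slc35f1*, *Gm281* and *Thsd4* are named because of these calls, that is, after their values were seen. *Gcg* was the only gene called higher in the mutant in CON, Ex-4 and FSK alike, on a scale that understates changes of weakly expressed genes.

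The same difference was read in the alpha and delta cell pools, which come from the same islets, wells and sublibraries and so share any fault of the preparation. The 149 genes higher in beta cells had a median of 0.77 in alpha and 0.80 in delta cells, and the 390 lower genes had medians of -0.56 and -0.58, against -0.00 and 0.02 over all genes kept in beta cells with a value there. *Rbm25* was higher by 1.45 in alpha and 1.6 in delta cells and *Chga* by 1.23 and 0.94. *Slc30a8* was at -1.39 in alpha and -0.76 in delta cells, while *G6pc2* (-0.19 and -0.19) and *Pcsk1* (-0.06 and -0.09) did not reach the threshold in either. *Bace2* was at -0.19 in alpha and -0.97 in delta cells. These pools were shallower, with 269394 to 810127 counts.

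Genes called in the mutant but not after Ex-4 in WT were then described. WT Ex-4 minus WT CON held 95 higher and 220 lower genes (0.941% and 2.18% of genes compared). Both comparisons subtract WT CON, so WT CON moves them together, and levels are given side by side. The 66 higher genes that were not shared (0.654% of genes compared) had a median difference of 0.69 at baseline and 0.50 in WT Ex-4 minus WT CON (range -0.01 to 0.58). The 181 lower genes (1.79%) had medians of -0.66 and -0.49 (range -0.58 to -0.24). Of these genes 62 of 66 and 179 of 181 had moved by over 0.29 in the same direction in WT Ex-4, short of the threshold. The 83 higher and 209 lower genes that were shared had baseline medians of 0.83 and -0.91. Lower genes that were not shared had a median length of 172 kb, against 336 kb for shared ones.

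By function, 6 of the 9 called hormone and granule genes were not shared, namely *Chga*, *Chgb*, *Ins1*, *Pcsk1*, *Cpe* and *Ptprn2*, beside 247 of all 539 called genes. *Chga* was at 10.1 CP10K in WT CON, at 13.6 in WT Ex-4 and 19 in mutant CON. Both called genes of the PKA list, 5 of 10 in growth signalling, 3 of 18 in splicing, 1 of 14 in adhesion and 0 of 4 in axon guidance were not shared. *Adcy9*, *Snap25*, *Cacna1c*, *Elovl5*, which elongates fatty acids, *Upf2*, *Upf3b*, *Ehmt2* and *Malat1* were in this set. *Malat1* was at 315 CP10K in WT CON, at 445 in WT Ex-4 and 633 in mutant CON. *Vegfa* (5.92, 8.99 and 11.6 CP10K in the same order) and *Peg3* (33.2, 49.5 and 66.5), an imprinted zinc finger gene, were also not shared and were chosen after their values were seen.

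Few genes of this set lacked a difference after Ex-4. The 8 higher genes least changed in WT Ex-4 were *Gcg*, *Lingo2*, *Gm24407*, *Mlxipl*, *Ankrd11*, *Fbrs*, *Upf3b* and the unnamed gene ENSMUSG00000120081. *Gcg*, which encodes glucagon, was at 0.375 CP10K (0.309 to 0.451) in WT CON, 0.362 in WT Ex-4 and 0.262 in WT FSK, and at 1.25 (1.10 to 1.42) in mutant CON, 1.39 in mutant Ex-4 and 1.53 in mutant FSK. All 3 mutant pools were thus above all 3 WT pools. Of 3 markers of pancreatic polypeptide (PP) cells, *Ppy* and *Pyy* had the same order at low levels. *Ppy* was at 0.0873 to 0.110 CP10K in WT and 0.204 to 0.312 in mutant pools, and *Pyy* at 0.0517 to 0.0637 and 0.161 to 0.266. Their baseline differences (0.24 and 0.19) did not reach the threshold, and *Sertm1* did not show this order. Alpha cells held 21.6% of the counts of mutant CON islets and 10.3% of those of WT CON islets, and *Gcg* in the alpha cell pools was at 85.8 CP10K in WT CON against 35.2 in mutant CON. Of the 9 alpha cell markers 6 were higher and 2 lower in mutant CON beta cells, and the part of glucagon RNA from alpha cells in the beta cell value was not tested. *Lingo2* was at 0.0432 CP10K (0.0230 to 0.0738) in WT CON, 0.0973 in WT Ex-4 and 0.602 (0.498 to 0.723) in mutant CON, and at 0.162 in mutant Ex-4 and 0.0217 in mutant FSK, so that mutant CON alone was high. *Gm24407*, a small nuclear RNA gene on chromosome 5, was at 0.684, 0.839 and 2.88 CP10K in WT CON, WT Ex-4 and mutant CON.

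The 8 lower genes least changed in WT Ex-4 were *Scarna2*, *Dpp4*, *Hlcs*, *Eri3*, *Mtmr7*, *Ptprj*, *Gm49797* and *Prkacb*. *Dpp4*, the protease that inactivates GLP-1, was at 2.36 CP10K (2.19 to 2.54) in WT CON, 1.83 in WT Ex-4 and 1.21 (1.06 to 1.38) in mutant CON (-0.61). It was at 1.38 in mutant Ex-4, 2.00 in WT FSK and 1.5 in mutant FSK, so each mutant pool was below the WT pool of the same treatment. That order was common: of the 390 lower genes, 367 were below 0 after Ex-4 and 309 after FSK, against 7340 and 3261 of all 10093. *Ptprj*, a receptor phosphatase, was at 3.27, 2.42 and 1.80 in WT CON, WT Ex-4 and mutant CON, and *Hlcs*, which attaches biotin to carboxylases, at 2.10, 1.52 and 0.997. WT Ex-4 lay between WT CON and mutant CON for each of the 8, as it did for all 181 lower genes not shared. Genes not shared were defined by a smaller change in WT Ex-4, which by itself places WT Ex-4 above mutant CON. After rescaling, *Gm49797* (-0.60) alone of the 8 still passed the threshold.

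**Figure D5:**
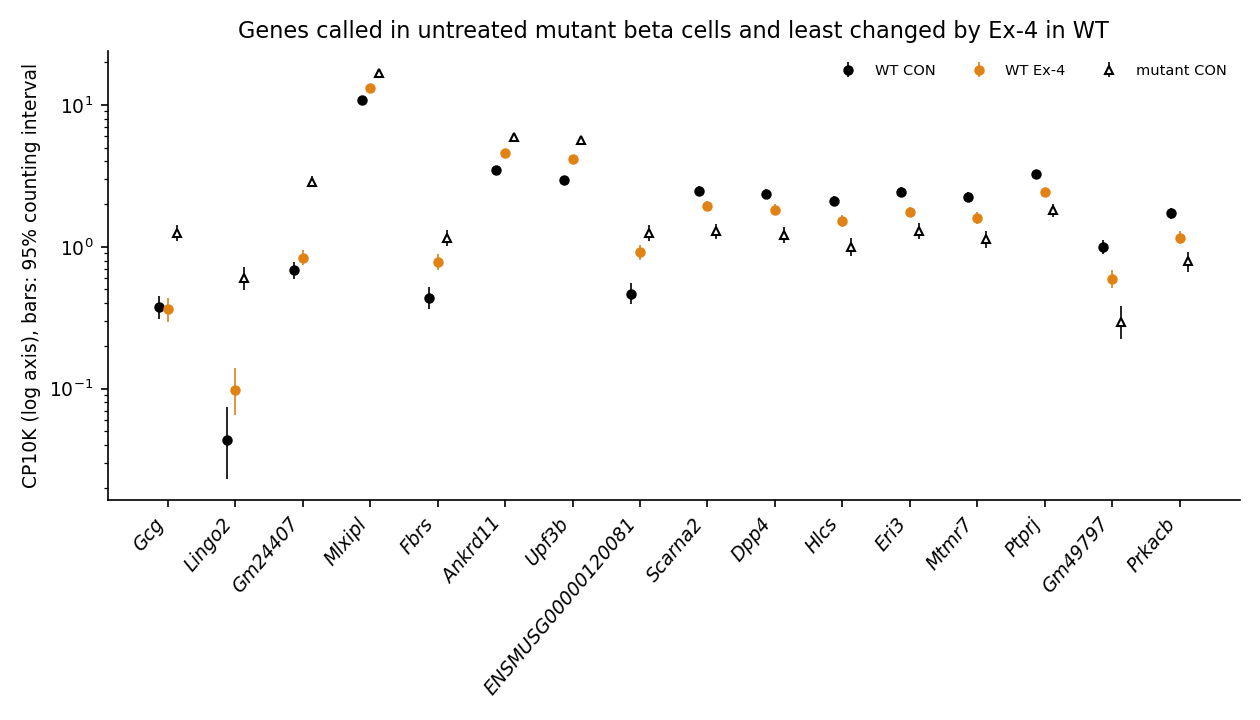
Level in CP10K (log axis) of the 8 higher and 8 lower genes called in mutant CON and least changed by Ex-4 in WT. Filled black circles are WT CON, orange circles WT Ex-4 and open triangles mutant CON, with 95% exact Poisson intervals of the counts. For *Gcg* the WT pools coincide (0.375 and 0.362), and for the 8 lower genes WT Ex-4 lies between the other 2 pools. The latter holds for all 181 lower genes not shared.

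Mutant CON was finally set directly against WT Ex-4, a comparison that leaves out WT CON. Only 4 genes were higher and 2 lower (0.0396% and 0.0198% of genes compared). The higher genes were *Gm19951* (22.3 CP10K in WT Ex-4 and 57.2 in mutant CON, 1.32), *Gm24407* (1.08), *Cdk8* (44.2 and 86.9, 0.96) and *Gcg* (0.72). *Ero1b* was lower, at 19.6 CP10K in WT Ex-4 and 11.9 in mutant CON (-0.68). It was at 29.1 in WT CON, 14.3 in mutant Ex-4, 43.5 in WT FSK and 37.2 in mutant FSK. The mutant was thus below WT within each treatment, as for most genes lower at baseline. The receptor gene *Il31ra* was at 3.53 CP10K in WT Ex-4 and 1.85 in mutant CON (-0.67), and at 2.36 in WT CON. Over all genes the median of this comparison was -0.03.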

How the data were processed

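Nuclei of cultured islets from wild type and *Med14* S983A mice were sorted, barcoded by combinatorial split-pool barcoding and sequenced by the authors, who aligned the reads to mm39 with split-pipe, filtered, integrated and annotated the nuclei in Seurat and pooled them by condition and cell type. The deposited values are on a natural log scale, ln(1 + CP10K), where CP10K are counts per 10000 counts of a pool. Whole counts were recovered from all values (tolerance 0.001, 100% whole, largest distance 5.38e-05). The sources used here do not state if raw or corrected counts were pooled, or if reads were counted by strand.

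The beta cell pools held 1915006 to 3094377 counts. Genes were kept where the mean deposited value over the 6 beta cell pools reached the 40th percentile of genes above 0 (0.0598 CP10K), and were called at a 1.5-fold difference of CP10K + 1. With 1 pool per condition no test, SD or p-value was possible. Intervals are 95% exact Poisson intervals, and they cover counting error only. A count of 0 allows up to 3 counts. Alternatives were linear pseudocounts, filters, a 2-fold threshold, centring, scaling to counts outside the ribosomal RNA linked and mitochondrial lists, and subtraction of a lowess fit against log gene length (span 0.3). Gene models and promoters were from GENCODE M39 on GRCm39 (16531 of 17362 genes matched), and 18S ribosomal RNA was searched with BLAST+ 2.17.0+. Scripts ran in Python 3.11.15 with pandas 2.3.3, scipy 1.17.1 and statsmodels 0.14.6 and were tested on simulated data.

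The comparison, the 48 gene lists and the rule for named genes were chosen with earlier results of these data known, and 12 further families were added after the values were seen. The rule named the 15 largest differences in each direction among genes above the median level, the 8 genes in each direction that were not shared and least changed in WT Ex-4, up to 5 called genes in each direction of mutant CON against WT Ex-4, up to 6 called members of each list, every member of the hormone, transcription factor, glucose sensing, cAMP pathway, Mediator, 7SK, H3 methyltransferase and sex-linked lists, and *Med14* with its neighbours. Other genes named are marked in the text as picked with their values known, or are the genes nearest to the threshold, the extremes of a list, called members of a list given in full, or the genes called in a treated comparison. The values of some genes are not reported here.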

Additional observations from a re-analysis of the deposited data

Results flagged for a closer look

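The glucagon gene *Gcg* moved in opposite directions in beta and alpha cells of the same untreated islets. In beta cells the difference of mutant CON minus WT CON was 0.71, and in alpha cells, where the gene is most abundant, it was -1.26. With 1 pool in each group the difference between these cell types was not tested. It was the only gene called in opposite directions in beta and alpha cells, and 0 were in beta and delta cells.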

How the results depend on the processing

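The number of calls depended on the scale. The counts that follow are, in order, genes higher and lower at baseline, those not shared with WT Ex-4 in each direction, and genes higher and lower in mutant CON against WT Ex-4. On linear CP10K they were 2535, 2221, 431, 1137, 286 and 831 with a pseudocount of 0.01 times the median level, 2220, 2025, 461, 1065, 168 and 528 with 0.1 times and 566, 932, 186, 477, 12 and 12 with 1 times. A 2-fold threshold gave 28, 71, 18, 53, 2 and 0. Rescaling outside the ribosomal RNA linked and mitochondrial lists gave 234 higher genes and 103 not shared. Removal of the length trend gave 136 lower genes, and 119 higher and 81 lower ones not shared. The other counts under these alternatives, and all 6 counts with no filter, the stricter filter, centring or without genes listed at 0, stayed within 1.5 times. Higher genes were 53.3%, 52.3% and 37.8% of calls with the 3 pseudocounts. All 149 and 390 genes were still called on each linear scale, 142 and 293 after rescaling, and 131 and 133 without the length trend. The result on the linear scales had to follow, because an added constant below 1 only widens each difference. Of the 266 named genes with a length, 2 reversed without it, *Fgfr2* (0.023) and *Pcdh15* (0.0004), and 116 moved by more than their counting interval. The stricter filter shifted the median of all genes by -0.11.

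No paired analysis was possible because each condition has 1 pool per cell type. For the same reason no replicate was left out. The counting intervals do not include variation between mice, islet preparations or barcode wells, none of which was replicated. Depth limits weakly expressed genes, for which the added constant of 1 keeps differences small.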
